A study of Saccharomyces cerevisiae with 12 samples.

Results

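The spindle, kinetochore and cohesin genes described here are 46 genes of Saccharomyces cerevisiae, of 7126 in the deposited tables, chosen by name for their part in building the mitotic spindle, attaching chromosomes to it and holding sister chromatids together. Of these, 45 were found under their symbol and NDC80 was found under its older symbol TID3 by its locus tag, and all 46 had a completed estimate in each of the 12 libraries. The cells were wild-type BY4741, a haploid laboratory strain of mating type a. They carried pBY011 without an insert (control vector) or pBY011-YOX1 (YOX1 vector), which expresses YOX1 from the GAL1-10 promoter when galactose is present. Yox1 is a DNA-binding homeodomain protein that represses cell cycle genes together with Mcm1. Cultures of each strain grew in synthetic medium without uracil and with raffinose as carbon source, and were sampled untreated (0 h) and at 2 h and 4 h after galactose was added to 2% together with 200 mM hydroxyurea (HU), an inhibitor of ribonucleotide reductase that stalls replication forks. Each of the 6 combinations of vector and time had 2 libraries, from independent biological replicates according to the methods of the study. Every treated culture received both galactose and HU, so the responses to the sugar, to the drug and to time in culture cannot be told apart, and only the comparison of the vectors isolates the YOX1 plasmid. The chromosomal YOX1 gene was intact in both strains.

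The mitotic spindle of budding yeast is built of tubulin polymers that grow from the spindle pole bodies, which stay embedded in the nuclear envelope. Kinesins and crosslinking proteins push and bundle the microtubules, while the kinetochore, a stack of complexes on centromeric chromatin, holds the microtubule ends. Cohesin rings join the sister chromatids from S phase onward until separase cuts the Mcd1 subunit, and the spindle checkpoint delays that cut until every kinetochore is attached. Many of these genes are transcribed periodically, those for cohesin late in G1, so their transcript levels follow how a culture is spread over the cell cycle.

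The labels were checked in the same libraries. YOX1 FPKM (transcript fragments scaled by gene length in kilobases and by library size) lay between 29.8 and 40.8 in the 6 control-vector libraries, at 91.3 and 90.9 with the YOX1 vector before induction, and between 2458 and 3862 after it. GAL1, which encodes galactokinase, rose by 8.01 and HUG1, a target of the replication checkpoint, by 6.60 on the log2 scale in control cells at 2 h. Of the strain's markers, the a-specific STE2, MFA1 and MFA2 ranged from 98.7 to 7224 FPKM and the alpha-specific STE3, MF(ALPHA)1 and MF(ALPHA)2 from 1.17 to 20.6. Among the genes mutated in BY4741, LEU2 was listed at 0 in all 12 libraries and MET17 stayed at or below 0.391 FPKM. HIS3 was at 41.1 to 94.0. The files give no depth. If the intervals of the estimates reflect counting error alone, they imply roughly 9660000 to 18060000 fragments per library. On that reading every member had at least 97.1 fragments in each library. The 46 members spanned 5.56 to 399 FPKM. In untreated control cells their median was 29.7 scaled FPKM, against 39.3 over the 6887 genes tested.

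Levels differed widely among the members. The genes for beta-tubulin (TUB2, 326 scaled FPKM in untreated control cells) and alpha-tubulin (TUB1, 234, and TUB3, 128) were highest, followed by DAD1 at 109, which encodes a small DASH subunit and is only 285 bases long. TUB1 and TUB3 are close paralogues and may share reads. Outside the alpha- and beta-tubulins the other 43 members lay between 5.64 and 109, and 40 of the 46 between 10 and 60. The lowest were ECO1 (11.7), IPL1 (8.94) and BUB1 (5.64), all encoding enzymes that modify other proteins of the machinery.

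Treatment changed many of these genes in the control strain. At 2 h, 18 members had risen and 3 had fallen (limma, Benjamini-Hochberg adjusted p under 0.05), and at 4 h 18 had risen and 10 had fallen. These calls, like every called change here, had no overlap between the libraries of the groups compared. Calls and overlap come from the same values, so this is a description and adds no support to the calls. Among the 6887 genes, the called share was 37.8% at 2 h (18.4% higher, 19.3% lower) and 51.1% at 4 h (25.1% higher, 26.0% lower). The share of members that rose, 39.1% at both times, was above the share of all genes under this scaling, and the share that fell, 6.52% and 21.7%, below it. The median change was 0.13 at 2 h and 0.09 at 4 h, small beside that of single members, against 0.00 for all genes. Of the members, 17 were called in the same direction at both times and none in opposite directions. Changes were mostly modest, as 6 of the 28 called at 4 h reached 1.5-fold and 1 reached 2-fold. The split at 4 h depended on the scaling between libraries. Without scaling, which lowers the median change of all genes from 0 h to 4 h to -0.11 in control cells, 8 members were higher (17.4%) and 15 lower (32.6%), near the 18.3% and 34.2% of all genes, so the excess of rises at 4 h was not seen. At 2 h without scaling 14 were higher (30.4%) and 4 lower (8.70%), against 16.3% and 20.9% of all genes. Single libraries mattered as well. At 2 h the called members numbered 10 without either 0 h control library, and 12 and 13 without 2 h control replicates 1 and 2. At 4 h they numbered 17 and 15 without 0 h control replicates 1 and 2, and 17 without 4 h control replicate 1, of which 13, 9 and 10 were higher. Without scaling, the 10 rises lost at 4 h were those of SPC72, SPC97, BIK1, STU2, DUO1, SPC24, IPL1, BIR1, TUB1 and SMC3. The 4 lost at 2 h were those of IPL1, BIK1, ESP1 and 1 of the 2 spindle pole body genes called higher.

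**Figure D1:**
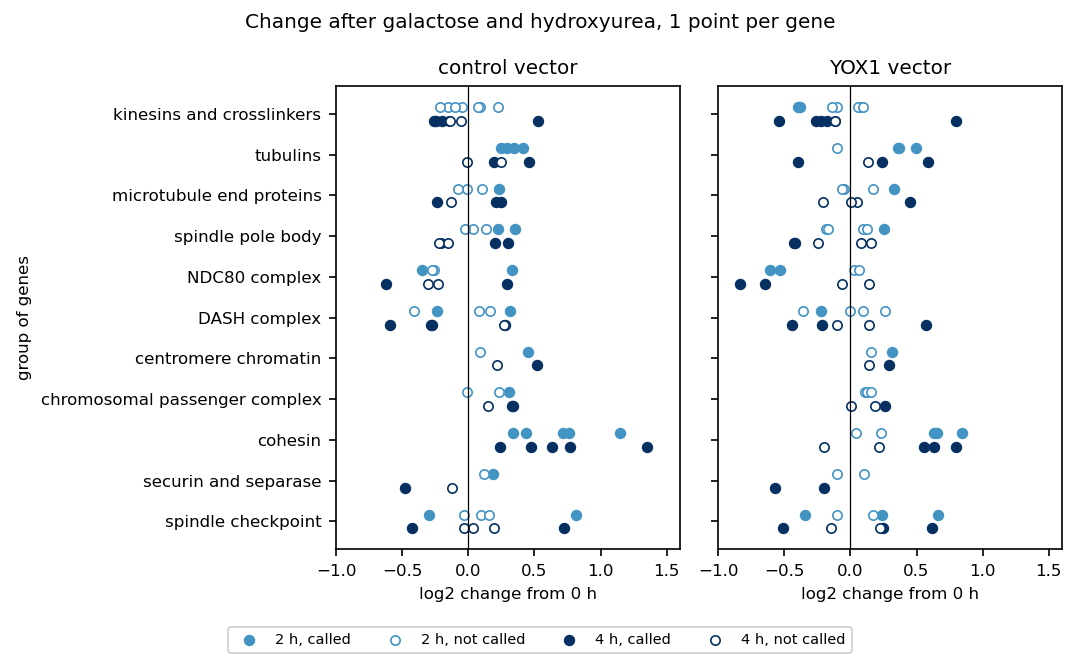
Change of each of the 46 genes from 0 h on the log2(FPKM + 1) scale (x axis), by group of genes (y axis), at 2 h (light blue) and 4 h (dark blue) with the control vector (left) and the YOX1 vector (right). Filled points had an adjusted p under 0.05. All 5 cohesin genes lie to the right of 0 with the control vector, and MCD1 at 4 h is the point farthest to the right at 1.35.

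The cohesin genes rose together in control cells, 5 of 5 at 2 h and 5 of 5 at 4 h. Over all genes 18.4% were called higher at 2 h and 25.1% at 4 h. MCD1 encodes the kleisin subunit that separase cuts. Its FPKM was 43.8 and 43.7 in the untreated control libraries, 93.8 and 99.7 at 2 h, and 107 and 103 at 4 h. Both treated pairs lay at more than 2 times the untreated pair, and the log2 change was 1.15 at 2 h and 1.35 ± 0.065 (SE) at 4 h (2.55-fold, adjusted p = 2.75e-06), the largest rise among the members. ECO1 encodes the acetyltransferase that locks cohesin onto replicated DNA. It went from 10.7 and 13.2 FPKM to 19.8 and 19.9 at 2 h and 20.2 and 18.7 at 4 h. The treated libraries were all above the untreated ones and near each other, and the change at 4 h was 0.77 ± 0.086 (adjusted p = 0.00019). IRR1, for the Scc3 subunit, rose by 0.76 and 0.64 at 2 h and 4 h. The genes of the ATPase pair moved less, SMC1 by 0.34 and 0.48 and SMC3 by 0.44 and 0.24. Without scaling, all 5 rises were still called at 2 h and 4 of 5 at 4 h, SMC3 being the exception.

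The promoters of 4 cohesin genes are printed here because MCD1, of this group, had the largest rise among the members. A further reason is that late G1 genes often carry the MCB (ACGCGT, bound by MBF) or the SCB (CGCGAAA or CACGAAA, bound by SBF). Each window runs from 250 bases before to 50 bases after the A of the annotated start codon, 5′ to 3′ on the gene's strand, from the RefSeq copy of R64, whose coordinates for all 46 genes equal those of the deposited tables (sacCer3). MCD1 is at chrIV:444433-444732 on the plus strand, SMC3 at chrX:302800-303099 on the minus strand, IRR1 at chrIX:307880-308179 on the minus strand and ECO1 at chrVI:207202-207501 on the plus strand. Capitals mark MCB and SCB matches on either strand.
MCD1: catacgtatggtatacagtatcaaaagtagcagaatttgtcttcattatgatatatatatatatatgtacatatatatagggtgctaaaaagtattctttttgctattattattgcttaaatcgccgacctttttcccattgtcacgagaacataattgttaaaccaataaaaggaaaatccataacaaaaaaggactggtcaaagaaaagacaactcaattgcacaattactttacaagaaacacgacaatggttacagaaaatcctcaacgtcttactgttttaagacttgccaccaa
SMC3: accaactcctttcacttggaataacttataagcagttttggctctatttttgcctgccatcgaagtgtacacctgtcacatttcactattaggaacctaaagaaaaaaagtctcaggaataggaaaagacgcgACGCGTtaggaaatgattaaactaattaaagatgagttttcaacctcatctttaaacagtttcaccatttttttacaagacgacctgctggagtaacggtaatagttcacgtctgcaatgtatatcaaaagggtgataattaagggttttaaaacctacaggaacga
IRR1: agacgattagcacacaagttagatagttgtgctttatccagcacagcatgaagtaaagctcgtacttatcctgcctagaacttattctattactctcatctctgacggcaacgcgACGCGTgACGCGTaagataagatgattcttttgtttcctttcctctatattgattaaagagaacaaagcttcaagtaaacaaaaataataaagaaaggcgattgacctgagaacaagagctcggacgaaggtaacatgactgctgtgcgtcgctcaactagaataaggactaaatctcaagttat
ECO1: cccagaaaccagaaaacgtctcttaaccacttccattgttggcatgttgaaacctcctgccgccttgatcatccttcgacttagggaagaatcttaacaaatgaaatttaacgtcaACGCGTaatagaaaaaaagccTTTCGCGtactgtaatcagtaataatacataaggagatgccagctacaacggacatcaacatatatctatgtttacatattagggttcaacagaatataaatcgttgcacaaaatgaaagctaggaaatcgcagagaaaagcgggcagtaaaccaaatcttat
IRR1 has a pair of MCBs that begin 135 and 128 bases before the start, SMC3 has 1 at 117 bases, and ECO1 has 1 at 134 bases beside an SCB that reads TTTCGCG on this strand at 113 bases. SMC1 (window not printed) has an MCB at 122 bases, while the MCD1 window holds neither box, which says only that the letters are not in this stretch.

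Over all 46 members, 11 windows (23.9%) held the MCB, against 3.06% of 6006 windows of the same length genome-wide. The others with an MCB were PDS1, MIF2, IPL1, BIM1, SPC42, SPC110 and TUB4. CGCGAAA was in 11 members (23.9% against 3.60%), CACGAAA in 5 (10.9% against 4.20%), and the forkhead box GTAAACA in 11 (23.9% against 6.54%). TAATTA, a homeodomain core, was in 8 (17.4% against 15.5%), and CC, any 6 bases, then GG, the core that Mcm1 contacts, was in 13 (28.3% against 29.1%). All motifs were searched on both strands, and 1 pair of matches of different motifs overlapped, the MCB and TAATTA of SPC110. At 2 h in control cells, 7 of the 11 members with an MCB were called higher and none lower, and 11 of the 35 without it were higher and 3 lower. Genome-wide the shares called higher were 45.7% of 184 genes with the box and 19.5% of 5755 without it. These shares are descriptions, and a match is not evidence of a bound site.

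The tubulin genes also rose, 4 of 4 in control cells at 2 h and 2 of 4 at 4 h. The shares of all genes called higher were 18.4% and 25.1%. TUB1, for the major alpha-tubulin, rose by 0.41 at 2 h and 0.19 at 4 h, and TUB3, for the minor one, by 0.29 and 0.46. TUB2, for beta-tubulin, rose by 0.24 at 2 h and was at -0.01 at 4 h, a fall of 0.25 between the times. Of the 4 genes for proteins at microtubule ends, BIK1 rose at both times (0.23 and 0.25). STU2, for a polymerase, rose at 4 h (0.21). These rises of BIK1 and STU2 were not called without scaling. BIM1, for the end-binding protein, fell at 4 h by 0.24, and STU1 was called in no comparison. Among the 5 spindle pole body genes, SPC97, for a subunit of the gamma-tubulin complex, rose at both times (0.36 and 0.30), as did SPC72, for its cytoplasmic anchor (0.23 and 0.20).

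The motor genes are too few to set their calls apart from those of all genes, 26.0% lower and 25.1% higher at 4 h in control cells. None of the 7 genes for kinesins, kinesin partners and crosslinkers was called at 2 h in control cells, and at 4 h KIP1, KIP3 and CIK1 had fallen by 0.20 to 0.26. ASE1 went the other way. It encodes the protein that bundles antiparallel microtubules in the spindle midzone. Its FPKM was 23.6 and 23.5 untreated, 21.1 and 21.9 at 2 h, and 34.0 and 29.5 at 4 h in control cells, and 25.0 and 22.1, 16.5 and 18.0, and 37.7 and 39.3 with the YOX1 vector. In each strain both 4 h libraries stood above all 4 earlier ones. The rise from 2 h to 4 h was 0.63 in control cells and 1.20 with the YOX1 vector, and ASE1 was the only member called higher in either interval, against 7 and 5 called lower. These lower calls rest on few libraries. In control cells 3 were left without 2 h replicate 1, and 1 each without 2 h replicate 2 and 4 h replicate 1, and with the YOX1 vector 2 were left without 2 h replicate 1 or 4 h replicate 1, 1 without 2 h replicate 2 or 4 h replicate 2, and 3 without either 0 h control library. From the libraries compared alone, 0 and 1 were called lower. Over all genes, 18.3% were called from 2 h to 4 h in control cells (9.64% higher, 8.61% lower) and 11.0% with the YOX1 vector (5.82% higher, 5.18% lower). The lower members were CIN8, KIP1, TUB1, PDS1 and ESP1 in both strains, and TUB2 and SPC34 in control cells.

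Genes of the NDC80 and DASH complexes went in both directions. SPC25, for a subunit of the NDC80 complex that grips the microtubule, had 34.3 and 28.7 FPKM in untreated control cells, 25.1 and 25.6 at 2 h, and 17.6 and 19.3 at 4 h. The groups at 0 h and 4 h did not overlap, and the fall of 0.62 ± 0.20 (adjusted p = 0.0311) was the largest among the members in control cells. Its partner SPC24 rose by 0.33 and 0.29 at 2 h and 4 h. DAD1, in the DASH ring around microtubules, went from 110 and 113 to 90.8 and 73.9 and then 64.5 and 70.9 FPKM. All treated libraries were below the untreated ones, and the change at 4 h was -0.59 ± 0.14 (adjusted p = 0.00962). Among other DASH genes, DAM1 and SPC34 fell at 4 h by 0.28 each and DUO1 rose by 0.27. On the chromatin side, MIF2, which encodes an inner kinetochore protein that binds the centromeric nucleosome, rose by 0.45 and 0.52, whereas CSE4, for the centromeric histone H3 variant, was called in no comparison. IPL1, for the Aurora kinase that corrects attachments, rose by 0.31 and 0.34, and its partner BIR1 by 0.33 at 4 h. These rises of IPL1 and BIR1 were not called without scaling.

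The genes that end cohesion and those that guard it split as well. PDS1 encodes securin, the inhibitor of separase. Its FPKM was 33.9 and 33.4 untreated, 32.7 and 39.7 at 2 h, and 19.4 and 24.9 at 4 h in control cells. The 2 h libraries lay around the untreated ones and both 4 h libraries below, with a change at 4 h of -0.48 ± 0.12 (adjusted p = 0.0114). ESP1, for separase, rose by 0.19 at 2 h and then fell by 0.31 between 2 h and 4 h. Its rise was not called without scaling. BUB1 encodes a checkpoint kinase that marks unattached kinetochores. It had 5.96 and 5.56 FPKM untreated, 10.8 and 10.6 at 2 h, and 9.72 and 9.00 at 4 h. All treated libraries stood above the untreated pair, with changes of 0.81 at 2 h and 0.72 ± 0.11 at 4 h (adjusted p = 0.000938). MPS1, for the kinase that starts checkpoint signalling and also acts in spindle pole duplication, fell by 0.30 and 0.42. MAD1 and MAD2, for the pair that forms the inhibitory signal at the kinetochore, were called in no comparison.

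**Figure D2:**
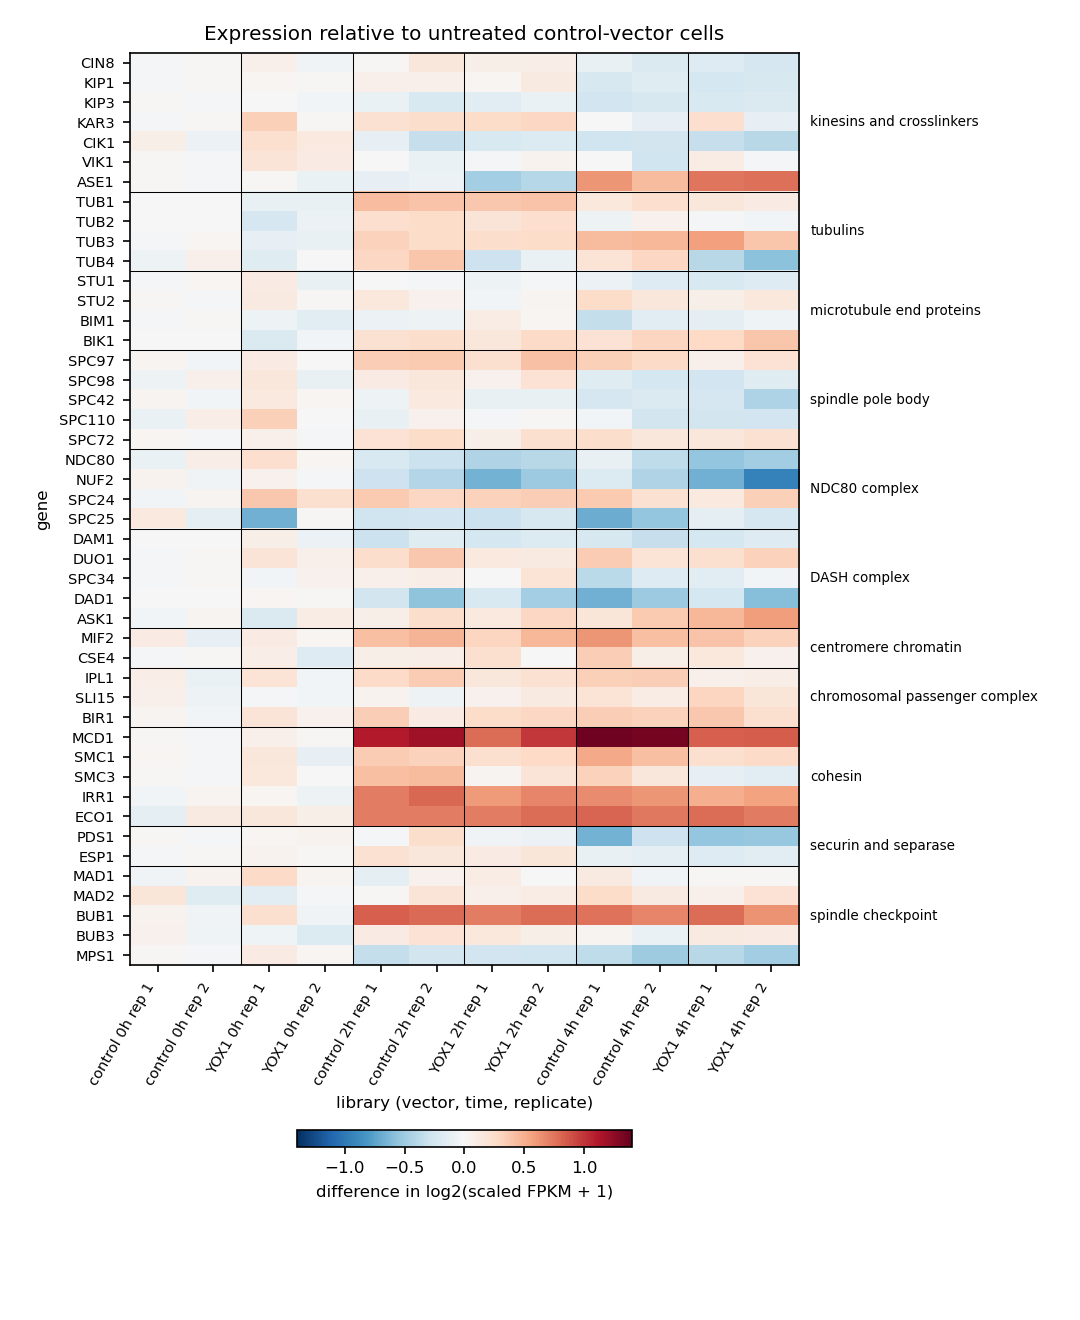
Scaled expression of the 46 genes (rows, grouped by function) in each of the 12 libraries (columns), as the difference of log2(FPKM + 1) from the mean of the 2 untreated control-vector libraries. Red is higher and blue lower. The cohesin block and BUB1 are red in all treated libraries apart from SMC3 with the YOX1 vector, while NUF2 and TUB4 are bluer in the treated YOX1 libraries than in the treated control libraries.

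With the YOX1 vector fewer members were called higher. At 2 h 11 members rose and 6 fell, with 43.8% of all genes called (21.6% higher, 22.2% lower), and at 4 h 12 rose and 14 fell, with 53.4% called (26.4% higher, 27.0% lower). At 4 h the shares of members, 26.1% higher and 30.4% lower, were near those of all genes, and without scaling 9 were higher and 17 lower. In all, 9 members were called higher and 7 lower at 4 h in both strains. Some were called with the YOX1 vector alone: at 4 h SPC42 and SPC110, for core and inner parts of the spindle pole body, fell by 0.42 and 0.43, ASK1, for a DASH subunit, rose by 0.57, and SLI15, for the activator of the Aurora kinase, rose by 0.27. BUB3, for a checkpoint protein that binds Bub1, rose by 0.24 at 2 h and 0.25 at 4 h, and its rises and that of SLI15 were lost without scaling. None of these 5 was called between the vectors. The 7 members called in no comparison were KAR3, VIK1, STU1, SPC98, CSE4, MAD1 and MAD2. Of the cohesin genes 3 of 5 rose at each time: MCD1 by 0.84 and 0.80, IRR1 by 0.66 and 0.56, and ECO1 by 0.63 at both. A call in 1 strain and not the other does not show that the strains differed, which the vector comparisons test.

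The comparison of the vectors asks what extra YOX1 does to these genes. Before induction no member was called (0.029% of all genes, 0.0145% in each direction), although 3 had an unadjusted p under 0.05. At 2 h 1 member was lower with the YOX1 vector and none higher (1.95% of all genes, 1.68% lower), and 5 had an unadjusted p under 0.05. At 4 h 4 were lower and none higher (6.23% of all genes, 4.31% lower and 1.92% higher), and 8 had an unadjusted p under 0.05. The 4 of 46 called lower, 8.70%, compare with 4.31% of all genes. Without scaling 2 were called lower, 4.35% against 3.27% of all genes, so the excess depended on the scaling. The median vector effect over the members was -0.02 at 2 h and -0.03 at 4 h, against 0.01 over all genes at 4 h. With scaling, 32 of the 46 members (69.6%) had a negative value at 4 h, against 46.8% of all genes. At 2 h 26 had one (56.5% against 49.0%) and at 0 h 16 (34.8% against 53.0%). Only the genes TUB4, MCD1, SMC3 and NUF2 were called.

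**Figure D3:**
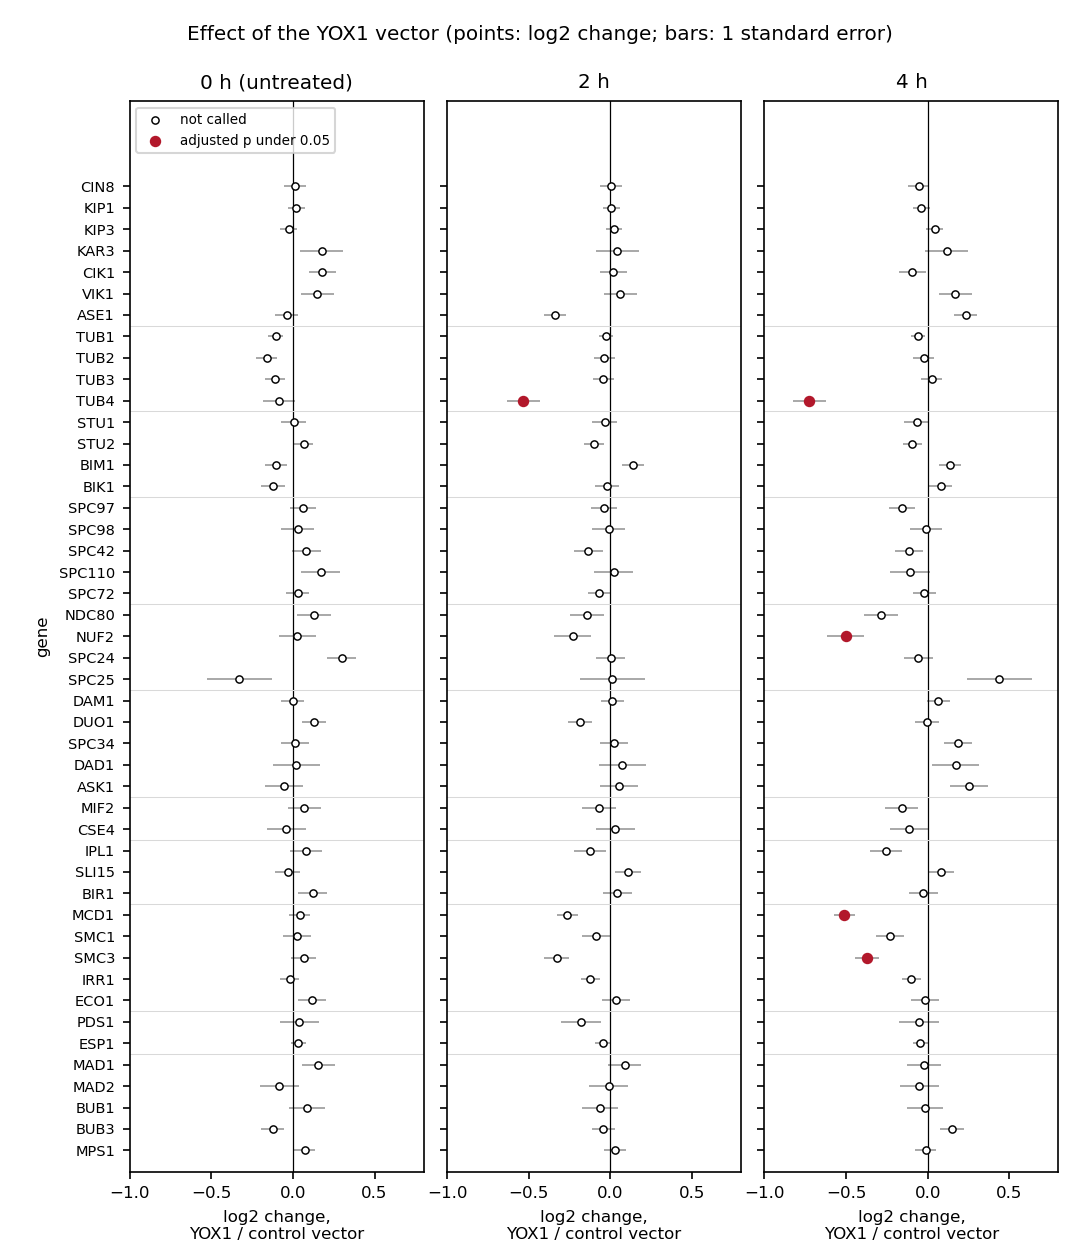
Log2 change of each gene (y axis) in cells with the YOX1 vector relative to cells with the control vector at 0 h, 2 h and 4 h (x axis, log2(FPKM + 1) scale), with bars of 1 SE. Red points had an adjusted p under 0.05: TUB4 at 2 h (-0.53), and TUB4 (-0.72), MCD1 (-0.51), NUF2 (-0.50) and SMC3 (-0.37) at 4 h.

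TUB4 had the largest difference. It encodes gamma-tubulin, which nucleates microtubules at the spindle pole body. FPKM with the control vector was 27.3 and 30.5 at 0 h, 34.9 and 37.8 at 2 h, and 31.0 and 32.4 at 4 h. FPKM with the YOX1 vector was 26.8 and 28.9, 23.3 and 27.6, and 20.5 and 18.3. The vectors overlapped before treatment and were apart at 2 h and 4 h, with the lowest values in the YOX1 libraries at 4 h. The vector effect was -0.53 ± 0.10 at 2 h (adjusted p = 0.0411) and -0.72 ± 0.10 at 4 h (0.605-fold, adjusted p = 0.00475), where it was called under 19 of 20 alternatives. The 2 h call was less firm, since 8 of 20 alternatives kept it (adjusted p 0.0366 to 0.235, log2 -0.63 to -0.43). It was lost without any 1 of the libraries of 0 h control (both), 2 h control (both), 2 h YOX1 (both) and 4 h control (both). Over 4 h TUB4 fell by 0.40 with the YOX1 vector, while control cells were at 0.24 (adjusted p = 0.0752), after a called rise of 0.34 at 2 h. The difference between the 4 h changes was -0.64 ± 0.14, with an adjusted p of 0.0701. The genes for the other gamma-tubulin complex subunits, SPC97 and SPC98, had vector effects of -0.16 and -0.01 at 4 h, neither called.

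MCD1 rose in both strains but less with the YOX1 vector. Against the control values above, its FPKM with the YOX1 vector was 48.2 and 44.5 at 0 h, 76.0 and 89.4 at 2 h, and 74.1 and 76.4 at 4 h. The 4 h libraries of the vectors were far apart, with both YOX1 libraries below both control libraries. The vector effect at 4 h was -0.51 ± 0.065 (0.702-fold, adjusted p = 0.00312), called under 19 of 20 alternatives, and at 2 h it was -0.26 (adjusted p = 0.115). MCD1 was the only member whose change over 4 h differed between the vectors, by -0.55 ± 0.092 (adjusted p = 0.0216), where 2.48% of all genes were called (1.96% lower) and 12 members had an unadjusted p under 0.05. This call was lost without any 1 of the libraries of 0 h control (both), 0 h YOX1 (replicate 1), 4 h control (both) and 4 h YOX1 (both), with adjusted p of 0.0586 to 0.0888 and log2 of -0.57 to -0.53. No member was called for the change over 2 h (0.741% of all genes), and 7 had an unadjusted p under 0.05.

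SMC3 and NUF2 were called at 4 h only. SMC3, for an ATPase subunit of cohesin, had 28.8 and 28.5, 38.0 and 39.0, and 33.5 and 29.3 FPKM at the 3 times with the control vector, and 33.2 and 28.6, 29.3 and 33.2, and 24.8 and 24.7 with the YOX1 vector. The control strain rose at 2 h and the YOX1 strain was at 0.04 there (not called), and the 4 h libraries with the YOX1 vector were the lowest of all 12. The vector effect was -0.37 ± 0.076 at 4 h (0.773-fold, adjusted p = 0.0278), kept under 11 of 20 alternatives, and -0.33 at 2 h (adjusted p = 0.0907). NUF2, for the partner of Ndc80, was lower after treatment in both strains, though it was not called lower at 4 h in control cells. Its FPKM was 31.3 and 29.4, 24.1 and 22.3, and 24.7 and 20.5 with the control vector, and 33.3 and 30.3, 18.8 and 21.5, and 17.6 and 14.7 with the YOX1 vector. The vectors did not overlap at 2 h or 4 h. The vector effect was -0.50 ± 0.11 at 4 h (0.706-fold, adjusted p = 0.0418) and was the least stable, kept under 7 of 20 alternatives (log2 -0.64 to -0.37, adjusted p 0.0312 to 0.289). SMC3 lost its call without any 1 of the 0 h and 2 h control libraries, 4 h control replicate 1 and either 4 h YOX1 library (adjusted p 0.0513 to 0.140). NUF2 lost it without any 1 of the libraries except 4 h YOX1 replicate 1, counting 4 h control replicate 2, where its log2 change grew to -0.62. NDC80, for the subunit paired with Nuf2, was at -0.29 between the vectors at 4 h (adjusted p = 0.166). Over time with the YOX1 vector it fell by 0.53 and 0.65, and NUF2 by 0.61 and 0.83. SPC25, of the same complex, went the other way between the vectors at 4 h and was not called. It had 26.8 and 25.4 FPKM with the YOX1 vector there, against 17.6 and 19.3 with the control vector. With the YOX1 vector its 0 h libraries, at 20.2 and 32.0 FPKM, lay around its 4 h libraries.

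**Figure D4:**
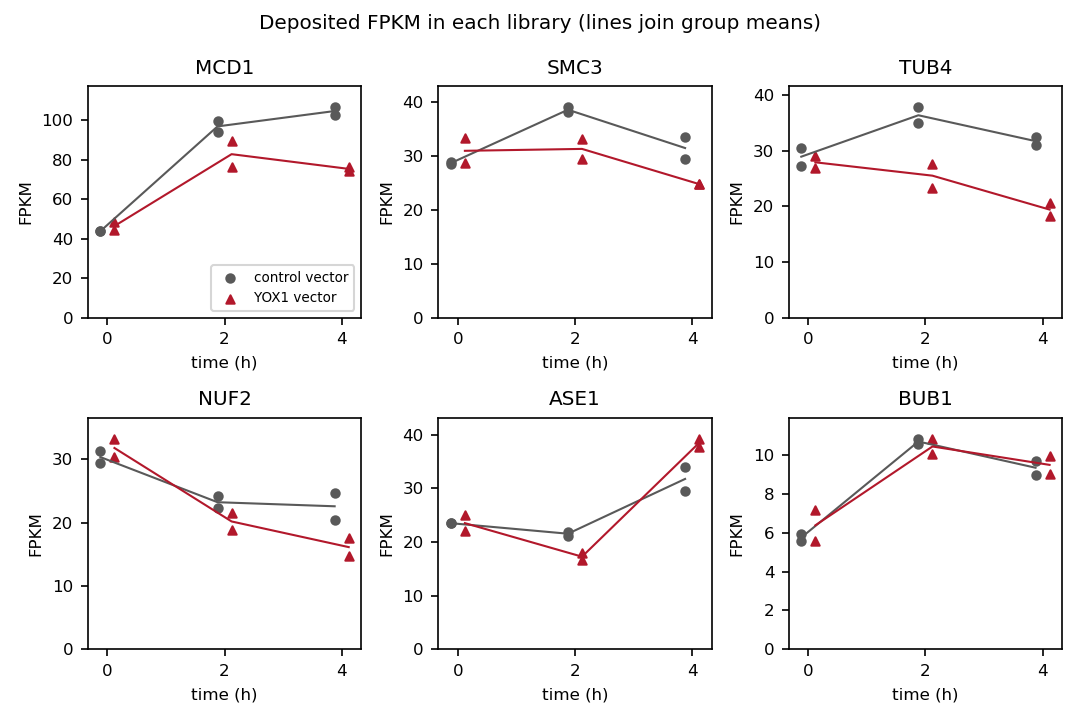
Deposited FPKM of 6 genes (y axis, from 0) in each library against time in hours (x axis), grey circles for the control vector and red triangles for the YOX1 vector, with lines through the means of 2 libraries. The vectors separate over time for TUB4, MCD1 and SMC3 and, less clearly, NUF2, while BUB1 rises alike in both and ASE1 rises after 2 h.

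The windows of TUB4 and NUF2, with the same limits, are printed because these are the called genes outside cohesin. TUB4 is at chrXII:566232-566531 on the minus strand and NUF2 at chrXV:198692-198991 on the plus strand. Capitals mark the MCB in TUB4 and, in NUF2, the 2 matches to CC, any 6 bases, then GG, which are left in lower case in the windows above.
TUB4: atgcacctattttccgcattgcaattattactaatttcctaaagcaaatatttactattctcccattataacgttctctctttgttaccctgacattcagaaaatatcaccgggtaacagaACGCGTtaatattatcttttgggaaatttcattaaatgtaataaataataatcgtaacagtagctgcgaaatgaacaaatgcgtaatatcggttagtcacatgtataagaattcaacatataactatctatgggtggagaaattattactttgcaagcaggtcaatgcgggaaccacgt
NUF2: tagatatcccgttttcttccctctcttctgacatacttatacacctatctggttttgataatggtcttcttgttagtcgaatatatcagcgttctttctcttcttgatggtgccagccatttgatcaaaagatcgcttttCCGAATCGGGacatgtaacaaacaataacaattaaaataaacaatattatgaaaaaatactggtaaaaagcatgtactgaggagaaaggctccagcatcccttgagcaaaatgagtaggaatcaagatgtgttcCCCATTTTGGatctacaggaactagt
The MCB of TUB4 begins 129 bases before the start. The matches of NUF2 begin 110 bases before the start and inside the coding sequence, and a match of this kind occurs in 29.1% of all windows. Neither window holds TAATTA, and of the 4 genes called between the vectors only SMC3 does. This says only whether those exact letters are in the stretch, and whether Yox1 binds these promoters was not tested.

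Several markers of cell cycle stage were lower with the YOX1 vector, but not all. Yox1 represses cell cycle genes, and whether these markers report stage in this comparison was not tested. The shares of all genes called lower were 1.68% at 2 h and 4.31% at 4 h. Of 4 G1/S cyclin genes, CLN1 and CLB6 were called lower with the YOX1 vector at 2 h and at 4 h. The median over the list was -0.34 and -0.40. CLN2 went the other way at 4 h, at 38.6 and 40.0 FPKM with the YOX1 vector against 32.6 and 35.8 with the control vector. Of 5 G2/M genes, CLB1, CDC20 and SWI5 were lower at 2 h and CLB2 too at 4 h, with medians of -0.84 and -1.31. The part of a shift in cell cycle stage in the lower TUB4, MCD1, SMC3 and NUF2 was not tested, and in bulk RNA fewer cells of a stage and less RNA per cell cannot be told apart. Among 64 further chromosome segregation genes, 2 were called lower (3.12%) and 1 higher (1.56%) at 4 h, below the 4.31% and 1.92% of all genes. CDC20, which encodes the activator of the anaphase-promoting complex, was at 23.7 and 20.6 FPKM with the control vector and 5.64 and 5.71 with the YOX1 vector, a change of -1.84 (adjusted p = 1.02e-05). KIP2, for a kinesin of cytoplasmic microtubules, was at 21.3 and 21.9 against 18.4 and 16.8 (-0.32, adjusted p = 0.0214). HSK3, for a DASH subunit, was at 153 and 164 against 215 and 225 (0.43, adjusted p = 0.0162). The libraries of the vectors did not overlap for these genes.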

How the data were processed

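Per the labels and the study's methods, RNA was depleted of ribosomal RNA and sequenced on an Illumina instrument from unstranded libraries, and reads were processed with TopHat2, Cufflinks and Cuffdiff against sacCer3. The authors deposited FPKM for 7126 genes in each of 12 libraries. FPKM are not counts, so the count-based test of the study was not repeated. Libraries were scaled by median ratios (factors 0.932 to 1.07) and transformed to log2(FPKM + 1), on which changes of weakly expressed genes come out too small. Genes averaging 1 FPKM or more (6887, including all 46 members) were tested. The limma package (3.58.1, R 4.3.3) fitted 6 group means jointly, with a mean-variance trend (6 residual and 1.81 prior degrees of freedom). Tests were two-sided, with Benjamini-Hochberg adjustment over all genes within a contrast. The fit was tested on simulated data. KIP3, SPC110 and ASK1 overlap another gene, and without strand their reads cannot be told from its reads. Library values are deposited FPKM and group means are scaled. Members, lists and motifs were chosen with earlier results of these data known. All members could be named. Library values were set by rule for members called between the vectors or in an interaction and for the 3 largest called changes in each direction at 4 h in control cells. ASE1 was added after its values were seen. Of the further genes, up to 4 with the largest called vector effect at 4 h were named. The closing section gives alternative scalings, pseudocounts, filters and designs, and the fit without each library.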

Additional observations from a re-analysis of the deposited data

Results flagged for a closer look

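MCD1 was the member whose change over 4 h differed between the vectors, by a test of the difference itself. The difference was -0.55 on the log2 scale (limma, adjusted p = 0.0216), from a rise of 1.35 with the control vector and of 0.80 with the YOX1 vector. Both libraries of each vector at 4 h stood above both at 0 h. The call was lost without any 1 of 7 libraries, as given above. Its cause was not tested.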

How the results depend on the processing

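Of 112 calls of a member in a comparison, 2236 values were computed under the alternatives, of which 1919 kept direction and call, 317 kept direction only and 0 changed sign. Counts of members called moved as follows. Without scaling, 0 were called between the vectors at 2 h (1 in the text) and 2 at 4 h (4 in the text), 13 from 2 h to 4 h in control cells (8 in the text) and 10 with the YOX1 vector (6 in the text), and at 4 h the YOX1 strain had 9 higher and 17 lower. The median of the members then fell to -0.02 at 4 h in control cells and to -0.10 with the YOX1 vector. For the vectors at 2 h the count was 0 with no filter, 0 without the trend, 0 from the compared libraries alone and 2 at a mean of at least 10 FPKM. From the libraries of the compared groups alone, the counts were 0 for the vectors at 4 h, 16 and 0 in control cells (4 h against 0 h, and against 2 h), and 11, 13 and 2 with the YOX1 vector (2 h and 4 h against 0 h, and 4 h against 2 h). That fit has fewer samples.

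Leaving out each library in turn gave 0 to 0, 0 to 2 and 2 to 5 members between the vectors at 0 h, 2 h and 4 h, 10 to 21, 15 to 29 and 2 to 10 in control cells, 12 to 18, 18 to 27 and 2 to 7 with the YOX1 vector, and 0 to 0 and 0 to 2 for the differences of change over 2 h and 4 h. The 4 h vector count was 2 without any 1 of the 0 h and 2 h control libraries, 4 h control replicate 1 or 4 h YOX1 replicate 2. In control cells the 2 h count was 10 without either 0 h library and 12 and 13 without 2 h replicates 1 and 2, and the 4 h count was 17 and 15 without 0 h replicates 1 and 2 and 17 without 4 h replicate 1. A group left with 1 library was assumed to vary like the others. Replicate numbers were not taken as pairing the samples, since 4 of 15 pairs of groups had a correlation of deviations above 0.1 (range -0.15 to 0.55). Within pairs of replicate numbers the correlation was higher among 3 groups, at 0.32 (YOX1 2 h and control 4 h), 0.55 (YOX1 2 h and 4 h) and 0.49 (both vectors at 4 h). With the replicate block the counts were 0, 1 and 4 between the vectors, 24, 29 and 7 in control cells, 18, 26 and 8 with the YOX1 vector, and 0 and 1 for the differences. Precision rests on 2 libraries per group.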

Other observations

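In control cells 18.4% of all genes were called higher and 19.3% lower at 2 h, and 25.1% and 26.0% at 4 h. Against that, the 4 cohesin partners (the loader genes SCC2 and SCC4, and PDS5 and RAD61, whose products stabilise or release cohesin) all rose at 2 h, PDS5 the most, by 0.84 (limma, adjusted p = 5.3e-05), and 3 of 4 at 4 h. Of 5 condensin genes, for the complex that compacts mitotic chromosomes, 2 rose at 2 h and 4 at 4 h, SMC4 by 0.36 and 0.51. Of 5 tubulin-folding genes, 4 rose at 2 h and 4 at 4 h. Of 27 further kinetochore genes, 7 rose and 3 fell at 2 h, and 6 rose and 8 fell at 4 h, with a median of -0.16 at 4 h. Their shares (25.9% and 11.1%, then 22.2% and 29.6%) were near those of all genes at 4 h. SGO1, for the protector of centromeric cohesion, was not called at 2 h and fell by 0.55 at 4 h. These genes were chosen to be named after their values were seen.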
